A study of Mus musculus with 31 samples.

Results

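Poly I:C given on top of phenformin was examined in 4T1 breast tumours by setting the 4 libraries of tumours that received both agents (titled 4T1-COMBO, treatment tag Poly I:C+Phenformin) against the 3 libraries of tumours that received phenformin with the saline vehicle (titled 4T1-PHEN, Saline+Phenformin). These 7 libraries were taken by their titles from the 31 of the study, in which bulk poly(A) RNA was sequenced from orthotopic syngeneic tumours of the MT and 4T1 lines after 4 treatments. The other 4T1 groups used below received Poly I:C+PBS (4 libraries, poly I:C) or Saline+PBS (4 libraries, control), and the MT tumours had the same arms with 4 libraries each. All carried the genotype tag WT. Doses, treatment lengths and the ages of the mice are not given in the sources used here, and the labels do not say that replicates came from separate animals, so p-values measure the spread between these libraries. The study's design text places MT tumours in FVB mice and 4T1 tumours in BALBc mice, but the tags of the libraries titled 4T1 name FVB tissue and the line MT4788, and those titled MT name BALBc tissue and the line 4T1-537. Groups here follow the titles. H2-Ea-ps, an MHC class II E alpha gene that is silent in some mouse strains, was expressed at 214 to 970 CPM (the count of a gene relative to all counts of its library, here unscaled) in the libraries with 4T1 titles, 15 in all, and at 5.24 to 53 CPM in the 16 with MT titles. Each 4T1 tumour arises from 1 transplanted cell line, so that tumour and host differ between the models together.

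Poly I:C is a synthetic analogue of viral double-stranded RNA. It binds Toll-like receptor 3 in endosomes, which signals through the adaptor TRIF to the kinase TBK1, the transcription factor IRF3 and NF-kB, and in the cytosol the RIG-I-like sensors, and these routes induce type I interferon, interferon-stimulated genes and inflammatory cytokines. Phenformin, a biguanide, blocks complex I, the first enzyme of the mitochondrial respiratory chain. A mammary tumour holds cancer cells, fibroblasts that lay down collagen, blood vessels, macrophages, dendritic cells, neutrophils and lymphocytes, and a piece of it can include the fat, muscle or lymphoid tissue around it. In such bulk RNA, fewer cells of a type and less RNA per cell cannot be told apart.

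The combination libraries held 16321311 to 18210799 counts and the phenformin libraries 14901135 to 19849915. The tumour epithelial genes were present throughout, with Epcam at 249 to 536 CPM in combination libraries and 176 to 601 CPM in phenformin libraries, and Krt8 at 533 to 752 CPM and 483 to 659 CPM. Phenformin replicate 2 stood apart from the other 6 libraries on the first principal component, which carried 44.3% of the variance among them (62.6, against -35.4 to 4.83). It held the least Epcam, Cdh1, Krt14, Krt8 and Krt18 RNA of these libraries. In unscaled CPM, phenformin libraries measured 592, 181 and 481 for Epcam, 293, 94.5 and 203 for Cdh1, and 106, 7.66 and 59.3 for Krt14. Phenformin replicate 2 also held the most immunoglobulin kappa RNA. Igkc measured 1.1, 4.93, 55.9 and 1.3 CPM in combination libraries, against 3.54, 595 and 32 CPM in phenformin libraries. Skeletal muscle RNA varied as well. Acta1, skeletal muscle actin, measured 239, 5.15, 2.81 and 96.8 CPM in combination libraries, against 0.682, 0.541 and 41.6 CPM in phenformin libraries, so it was high in combination replicates 1 and 4 and in phenformin replicate 4. Values are given throughout in the order of the replicate numbers, which are 1 to 4 for the combination and 1, 2 and 4 for phenformin. A single 4T1 gene value is in CPM with TMM-scaled library sizes, and a log2 fold change is combination over phenformin with its standard error (SE).

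No gene passed the test at an adjusted p under 0.05 in edgeR's quasi-likelihood test over 17445 genes (0% called, smallest adjusted p = 0.176), so every fold change of this contrast below is a value that missed that threshold. At an unadjusted p under 0.05 there were 2174 genes (12.5%), of which 1173 (6.72%) were higher and 1001 (5.74%) lower in the combination. The 4 combination libraries all lay above the 3 phenformin libraries for 1149 genes (6.59%) and all below for 1014 (5.81%). DESeq2 called 180 genes, 132 higher (0.707%) and 48 lower (0.257%), and limma voom with quality weights called 0, with 2327 at an unadjusted p under 0.05. A fit of the 7 libraries alone called 14 genes (adjusted p between 0.0375 and 0.0441). The 11 higher in the combination were Prrx1, Mfap5, Cdh11, Slit3, Dcbld2, Aebp1, Vgll3, Lox, Fstl1, Bgn and Loxl1, and the 3 lower were Plxdc2, Mgl2 and Clec7a. Several of the higher genes are fibroblast or matrix genes, such as Prrx1, a mesenchymal transcription factor, Lox and Loxl1, which cross-link collagen and elastin, and Bgn, the matrix proteoglycan biglycan. Mgl2 and Clec7a encode C-type lectins of macrophages and dendritic cells.

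**Figure D1:**
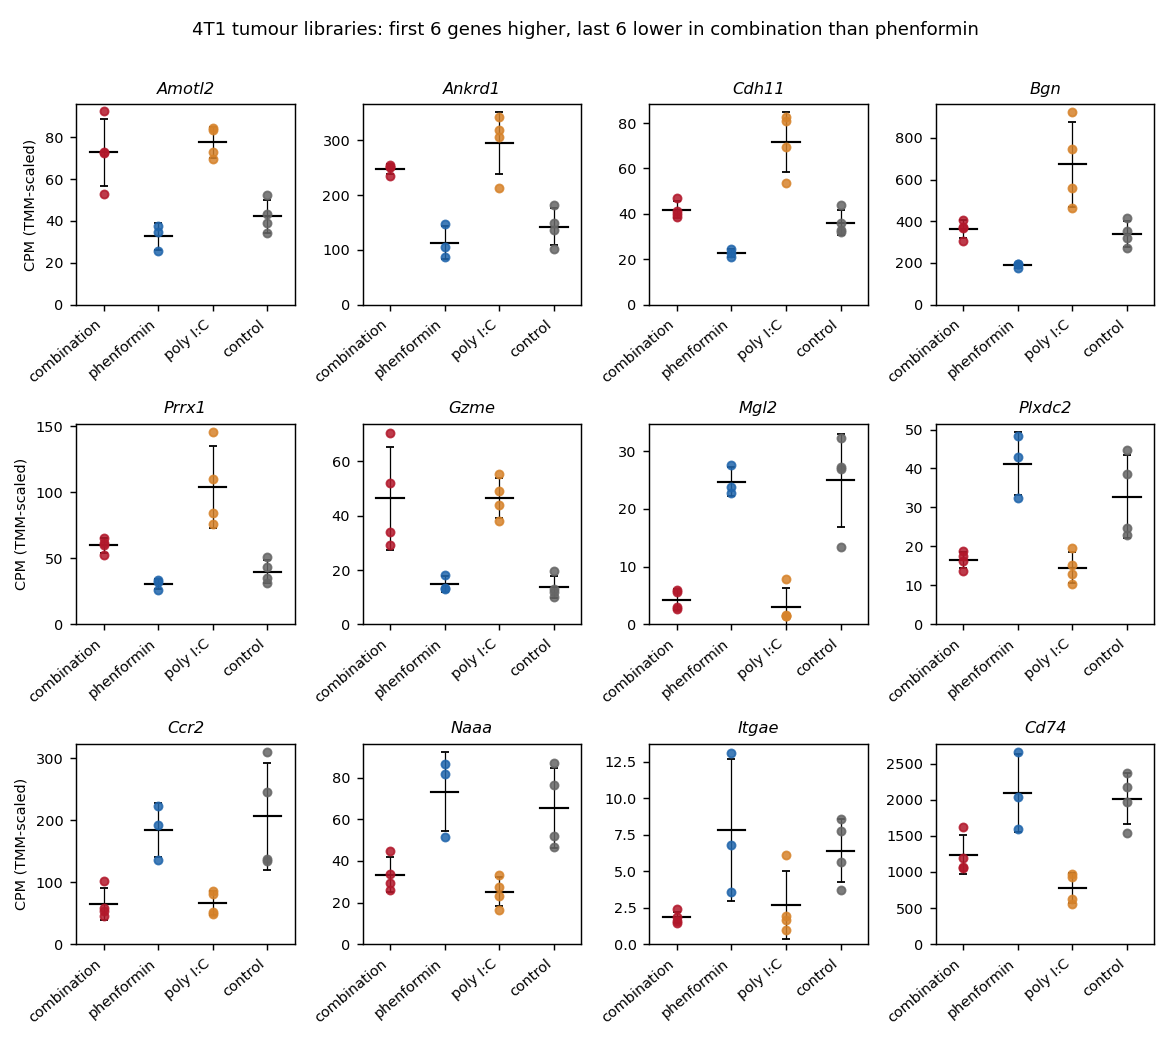
TMM-scaled CPM of 12 genes in each 4T1 library (1 point per library; bars give the mean and SD), with the combination, phenformin, poly I:C and control groups from left to right. In the first 6 genes, such as Amotl2 and Gzme, all combination points lie above all phenformin points, and in Mgl2, Plxdc2, Ccr2, Naaa and Itgae they all lie below; for Cd74 one combination point exceeds one phenformin point.

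Read by gene groups, many collagens, fibroblast genes and matrix proteases were higher in the combination. MHC class II genes and part of the dendritic cell and macrophage genes were lower. Summed over each list, collagens and matrix proteins came to 13632 to 18055 CPM in combination libraries and 9218 to 14603 CPM in phenformin libraries, and fibroblast markers to 3331 to 5003 CPM and 3032 to 3349 CPM, with overlap in both. Matrix proteases and inhibitors came to 2261 to 2989 CPM in combination libraries and 1577 to 2256 CPM in phenformin libraries, barely apart. Interferon-stimulated genes and NF-kB targets showed few or no members at an unadjusted p under 0.05. The plot of the 33 lists gives each list's share beside that of all genes. Member counts below are to be read beside the shares of all genes, 6.72% higher and 5.74% lower at an unadjusted p under 0.05. For groups without overlap these shares were 6.59% and 5.81%. They were 4.25% and 3.02% at that p without phenformin replicate 2, and 5.34% and 3.25% without the libraries with Acta1 above 10 CPM.

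**Figure D2:**
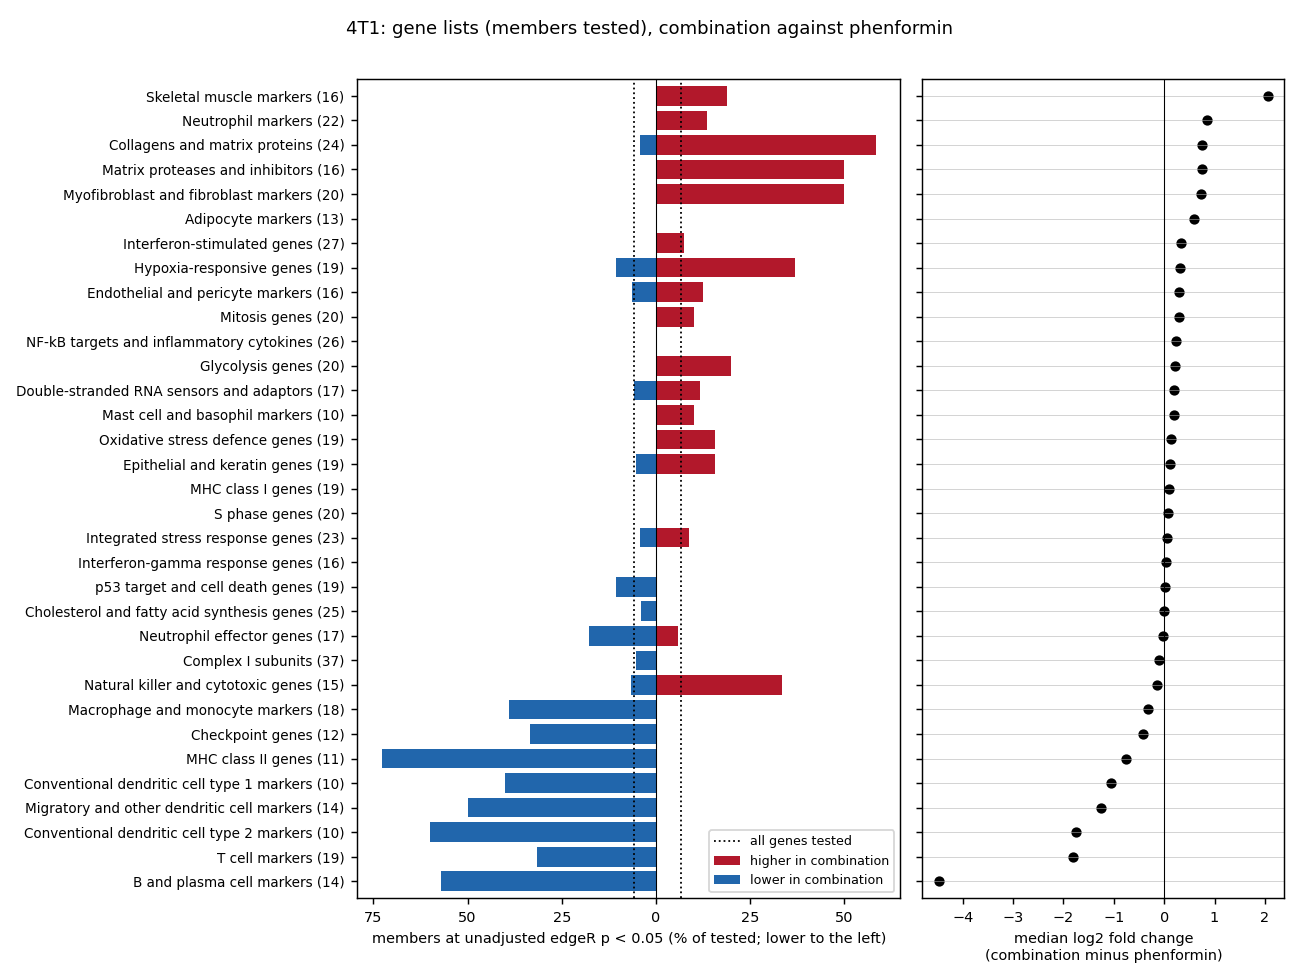
Left, the percentage of the tested members of each of 33 gene lists that were higher (right of 0) or lower (left of 0) in the combination than with phenformin at an unadjusted edgeR p under 0.05, with dotted lines at the shares of all genes tested (6.72% and 5.74%); right, the median log2 fold change of each list. Collagens, matrix proteases and fibroblast markers have the largest shares to the right, and MHC class II genes the largest to the left; B and plasma cell markers have the lowest median, at -4.48.

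Fibrillar collagens and their partners were higher with the combination. Bgn (ENSMUSG00000031375, chromosome X, 73483602-73495933, plus strand, GRCm38) measured 306, 404, 372 and 369 CPM in combination libraries, against 195, 196 and 175 CPM in phenformin libraries, a log2 fold change of 0.94 ± 0.20 (edgeR adjusted p = 0.176, DESeq2 adjusted p = 0.00278). Col5a2, a chain of collagen V, measured 368, 415, 424 and 387 CPM in combination libraries, against 223, 160.3 and 224 CPM in phenformin libraries (0.98 ± 0.26). Fbln1, a matrix glycoprotein of basement membranes and elastic fibres, measured 8.77, 9.2, 5.75 and 8.07 CPM in combination libraries, against 3.2, 3.39 and 3.18 CPM in phenformin libraries (1.28 ± 0.29). The groups did not overlap in any of these genes. The collagen I chains Col1a1 and Col1a2 differed by 1.02 ± 0.29 and 1.02 ± 0.28, Col3a1 by 0.88 ± 0.29, and the matricellular gene Postn by 0.89 ± 0.25, all without overlap. Of the 24 collagen and matrix genes, 14 were higher and 1 lower at an unadjusted p under 0.05, against 6.72% and 5.74% of all genes. The same numbers did not overlap, against 6.59% and 5.81% of all genes. The median log2 fold change was 0.75, against 0.00 over all genes tested. The lower gene was Eln, elastin, at 8.97, 5.64, 7.46 and 2.76 CPM in combination libraries, against 12.8, 20.5 and 12.7 CPM in phenformin libraries (-1.31 ± 0.35). Collagen VI and fibronectin did not share the difference: Col6a1 lay at -0.04 ± 0.18, Col6a2 at 0.24 ± 0.21 and Fn1 at -0.10 ± 0.24. DESeq2 called 7 of the list higher and 1 lower. Without phenformin replicate 2, which had the lowest Col5a2, 11 were higher and 1 lower (against 4.25% and 3.02% of all genes) and the median was 0.64. Leaving out the libraries with Acta1 above 10 CPM kept phenformin replicate 2 beside replicate 1 alone. In that fit 16 were higher and 1 lower (against 5.34% and 3.25% of all genes) and the median was 0.92.

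Markers of contractile and activated fibroblasts followed the same direction. Cnn1, the smooth muscle calponin, measured 2.84, 3.67, 3.12 and 4.29 CPM in combination libraries, against 1.43, 0.737 and 1.35 CPM in phenformin libraries, a log2 fold change of 1.58 ± 0.32 (edgeR adjusted p = 0.176). Acta2, smooth muscle actin, measured 77.7, 90.9, 93.8 and 88.1 CPM in combination libraries, against 53.9, 57 and 39 CPM in phenformin libraries (0.81 ± 0.22). Prrx1 measured 52.3, 65.2, 60.4 and 61.6 CPM in combination libraries, against 31.9, 26.3 and 33.5 CPM in phenformin libraries (0.97 ± 0.21). All 4 combination libraries exceeded all 3 phenformin libraries in each of the 3 genes. Loxl1 (0.97 ± 0.23), Lox (1.30 ± 0.45), Tagln (0.83 ± 0.26), another smooth muscle actin-binding protein, Pdpn (1.15 ± 0.38), encoding podoplanin, and Lrrc15 (1.02 ± 0.30), a marker of tumour fibroblasts, also did not overlap. Of 20 myofibroblast and fibroblast markers, 10 were higher and 0 lower at an unadjusted p under 0.05, beside 6.72% and 5.74% of all genes. In 12 the combination libraries all lay above, beside 6.59% of all genes, and the median was 0.72. Some general fibroblast surface genes gave values near 0, with Pdgfra at 0.07 ± 0.18 and Pdgfrb at -0.09 ± 0.24. Thy1, which is also in the T cell list, lay at 0.15 ± 0.19. Cdh11, a cadherin of mesenchymal cells that is not in the list (ENSMUSG00000031673, chromosome 8, 102632095-102785642, minus strand), measured 47.1, 41.1, 38.7 and 40.1 CPM in combination libraries, against 20.9, 22.6 and 24.7 CPM in phenformin libraries (0.88 ± 0.15, edgeR adjusted p = 0.176, DESeq2 adjusted p = 9.51e-05).

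Among matrix proteases and their inhibitors, 8 of 16 were higher and 0 lower at an unadjusted p under 0.05, beside 6.72% and 5.74% of all genes, with a median of 0.75. Mmp3, stromelysin 1, measured 94.3, 119, 131 and 155 CPM in combination libraries, against 59.2, 48.3 and 65.2 CPM in phenformin libraries (1.12 ± 0.39). Mmp2, gelatinase A, measured 53.3, 82.7, 57.3 and 48.6 CPM in combination libraries, against 30.6, 31.7 and 41.2 CPM in phenformin libraries (0.81 ± 0.23), and Adam12, a membrane-anchored metalloprotease, measured 32.1, 37.9, 31 and 32.2 CPM in combination libraries, against 21.1, 14 and 20.2 CPM in phenformin libraries (0.85 ± 0.24). The groups did not overlap in any of them. Mmp14, the membrane-bound activator of Mmp2, lay at 0.08 ± 0.14. Without phenformin replicate 2 the count fell to 3 of 16 (beside 4.25% of all genes), and without the libraries with Acta1 above 10 CPM to 5 of 16 (beside 5.34%).

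The smallest p of all genes belonged to Amotl2, an angiomotin family protein that binds the YAP co-activator (ENSMUSG00000032531, chromosome 9, 102716672-102733418, plus strand). It measured 53.1, 72.7, 92.4 and 73 CPM in combination libraries, against 37.6, 25.4 and 34.9 CPM in phenformin libraries, a log2 fold change of 1.16 ± 0.19 (edgeR adjusted p = 0.176, DESeq2 adjusted p = 7.02e-06). Ankrd1, an ankyrin repeat protein that is also a widely used YAP target (ENSMUSG00000024803, chromosome 19, 36111961-36120099, minus strand), measured 251, 251, 255 and 235 CPM in combination libraries, against 146, 86.8 and 106 CPM in phenformin libraries (1.14 ± 0.21, edgeR adjusted p = 0.176, DESeq2 adjusted p = 9.51e-05). Neither gene overlapped between the groups, which the choice of the leading genes by p required. Ankrd1 stood in the list of hypoxia-responsive genes and was not chosen as a YAP target, so 3 further genes of the YAP pathway were looked up after these values were seen. Lats2, a kinase that phosphorylates YAP, measured 57.7, 81.6, 61.6 and 71.9 CPM in combination libraries, against 42.4, 44.8 and 48.8 CPM in phenformin libraries without overlap (0.59 ± 0.14). The YAP targets Cyr61 and Ctgf overlapped, with 132, 123, 224 and 132 CPM in combination libraries, against 125, 67 and 144 CPM in phenformin libraries for Cyr61 (0.45 ± 0.38) and 253, 178, 512 and 252 CPM in combination libraries, against 267, 163 and 286 CPM in phenformin libraries for Ctgf (0.32 ± 0.35).

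The 250 bases before the start sites of Ankrd1 (chr19:36119845-36120094, minus strand) and Amotl2 (chr9:102717554-102717803, plus strand) are shown. Both genes are among the 10 smallest p of the higher genes without overlap and are known to answer to YAP, a link picked out after their values were seen. YAP acts through TEAD factors at the motif GGAATG or its complement CATTCC. The sequences are from RefSeq (GRCm38.p6), 5′ to 3′, with that motif in capitals. The RefSeq starts lie 255 bases (Ankrd1) and 1132 bases (Amotl2) inside the GENCODE gene spans given above, so both windows fall within those spans, and the nearest GENCODE transcript starts are 66 and 136 bases away.
Ankrd1: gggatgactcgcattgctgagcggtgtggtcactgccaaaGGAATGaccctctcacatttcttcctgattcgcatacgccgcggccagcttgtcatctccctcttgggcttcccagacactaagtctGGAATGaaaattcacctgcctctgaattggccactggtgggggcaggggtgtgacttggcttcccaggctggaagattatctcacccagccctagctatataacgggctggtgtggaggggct
Amotl2: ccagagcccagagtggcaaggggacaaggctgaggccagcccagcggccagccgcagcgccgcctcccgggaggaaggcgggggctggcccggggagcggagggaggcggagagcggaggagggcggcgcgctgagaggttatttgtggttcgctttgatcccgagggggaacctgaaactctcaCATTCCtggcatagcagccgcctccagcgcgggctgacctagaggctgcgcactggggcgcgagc
The Ankrd1 window holds GGAATG at 210 and 123 bases before the RefSeq start and the Amotl2 window holds CATTCC at 65 bases before it. Of 32851 promoter windows of the same 250 bases, 4153 (12.6%) hold the motif on either strand. A match describes the letters in the window and does not show that a factor binds there.

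The other leading higher genes were of mixed function. Rnf6, a ubiquitin ligase, measured 89.7, 95.4, 78.8 and 86.2 CPM in combination libraries, against 58.7, 63.8 and 63.2 CPM in phenformin libraries (0.50 ± 0.09). Dcbld2, a membrane receptor, measured 191, 238, 227 and 194 CPM in combination libraries, against 113, 115 and 122 CPM in phenformin libraries (0.87 ± 0.16). Igf2bp1, a binding protein of Igf2 and Myc messenger RNAs, measured 17.1, 16.3, 16.6 and 18.3 CPM in combination libraries, against 9.2, 3.83 and 7.09 CPM in phenformin libraries (1.36 ± 0.26). All combination libraries were higher than all phenformin libraries in each of these genes. This was a condition for choosing the leading genes and is no result about them. Rc3h1, the RNA-binding protein roquin 1 that degrades immune messenger RNAs, and the F-box protein gene Fbxo30 differed by 0.57 ± 0.11 and 0.55 ± 0.11, again without overlap. Mettl7b, a lipid droplet-associated methyltransferase family member, had the largest log2 fold change of these genes, 3.11 ± 0.57, at low levels of 2, 4.82, 2.75 and 6.04 CPM in combination libraries, against 0.409, 0.492 and 0.428 CPM in phenformin libraries. Wt1, a transcription factor of mesothelial and kidney precursor cells, measured 2.19, 2.52, 1.53 and 2.82 CPM in combination libraries, against 0.545, 0.541 and 0.673 CPM in phenformin libraries (1.94 ± 0.52). Htr2a, a serotonin receptor, and Usp13, a deubiquitinating enzyme, differed by 2.25 ± 0.49 and 2.27 ± 0.71 at low levels, under 10 CPM in every one of the 7 libraries.

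Several cytotoxic granule genes of the chromosome 14 granzyme cluster were higher in the combination, and they are described together with their values known. Gzmb, of the same cluster, overlapped between the groups. Gzme, granzyme E (ENSMUSG00000022156, chromosome 14, 56117626-56120625, minus strand), measured 70.6, 52, 33.8 and 29.2 CPM in combination libraries, against 13.4, 13.1 and 18.2 CPM in phenformin libraries, a log2 fold change of 1.64 ± 0.29 (edgeR adjusted p = 0.176, DESeq2 adjusted p = 1.97e-05). Gzmc measured 54.3, 58.3, 11.3 and 18.9 CPM in combination libraries, against 7.43, 10.8 and 10.2 CPM in phenformin libraries (1.91 ± 0.52, DESeq2 adjusted p = 0.0111). Gzmd measured 119, 91.2, 33.5 and 19.1 CPM in combination libraries, against 13.8, 22.5 and 15.3 CPM in phenformin libraries (1.93 ± 0.57). Gzme and Gzmc did not overlap between the groups, whereas combination replicate 4 lay within the phenformin range for Gzmd. Gzmf differed by 1.80 ± 0.78, and Gzmg, added after its value was seen because it belongs to the same cluster, measured 134, 106, 28.9 and 7.22 CPM in combination libraries, against 12.4, 20.1 and 12.5 CPM in phenformin libraries (2.20 ± 0.91). In all 5 genes combination replicates 1 and 2 held the most RNA of the 7 libraries. Prf1, perforin, which opens target membranes to granzymes, measured 33.2, 27.4, 10.5 and 13.9 CPM in combination libraries, against 10.2, 12.1 and 3.79 CPM in phenformin libraries (1.29 ± 0.43), with overlap.

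The granzymes and receptors that mark natural killer and T cells more widely gave overlapping or lower values. Gzmb measured 52.3, 42.1, 14.3 and 23 CPM in combination libraries, against 34.6, 20.2 and 16.4 CPM in phenformin libraries (0.48 ± 0.40), Gzma lay at -0.86 ± 0.55, and the lineage regulators Eomes and Tbx21 at 0.05 ± 0.37 and -0.18 ± 0.65. Klrb1c, the NK1.1 receptor gene, was lower, at 2.77, 1.92, 1.41 and 2.37 CPM in combination libraries, against 5.52, 5.36 and 3.73 CPM in phenformin libraries (-1.20 ± 0.35). Over the list of 15 genes, 5 were higher (Gzme, Gzmc, Gzmd, Prf1 and Gzmf) and 1 lower (Klrb1c) at an unadjusted p under 0.05. Over all genes 6.72% were higher and 5.74% lower, and the median of the list was -0.13. The same count of 5 and 1 stood without phenformin replicate 2 (beside 4.25% and 3.02% of all genes). Without the libraries with Acta1 above 10 CPM, among them combination replicates 1 and 4 and phenformin replicate 4, it was 3 and 4 (beside 5.34% and 3.25%).

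**Figure D3:**
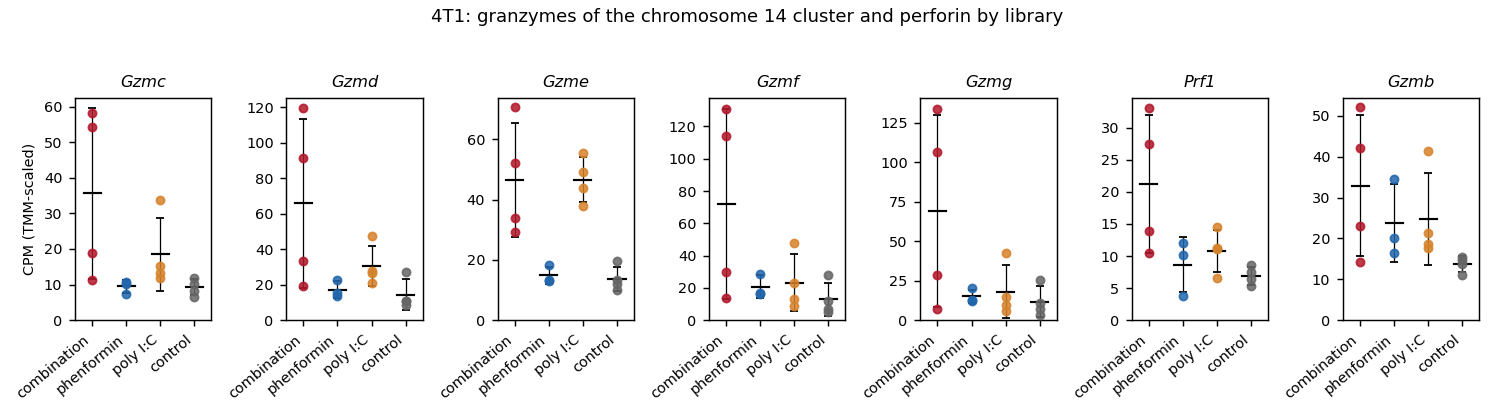
TMM-scaled CPM of Gzmc, Gzmd, Gzme, Gzmf, Gzmg, Prf1 and Gzmb in each 4T1 library (1 point per library; bars give the mean and SD), with the combination, phenformin, poly I:C and control groups from left to right. Gzmc, Gzmd, Gzmf and Gzmg are highest in 2 combination libraries (replicates 1 and 2), Gzme is as high in poly I:C libraries, and the Gzmb points of the combination (14.3 to 52.3 CPM) span those with phenformin (16.4 to 34.6 CPM).

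The 5 genes are close copies, so reads could be divided between them by the counting. Aligned GENCODE transcripts of the 5 were 76.2% to 94.8% identical, with Gzmd and Gzme the closest pair, and 21.9% of 50-base stretches of Gzmd, 20.6% of Gzme and 19.8% of Gzmg occur in another gene of the cluster, against 4.14% for Gzmc. The single values of Gzmd, Gzme and Gzmg are therefore uncertain. A stretch of the promoters is alike as well. Windows of 80 bases that start 88 to 113 bases before each start site are shown because these are the genes that were higher together (RefSeq, GRCm38.p6, minus strand, Gzmc chr14:56234666-56234745, Gzmd chr14:56132606-56132685, Gzme chr14:56120639-56120718, Gzmf chr14:56211441-56211520, Gzmg chr14:56159608-56159687). Capitals mark the bases shared by all 5.
Gzmc: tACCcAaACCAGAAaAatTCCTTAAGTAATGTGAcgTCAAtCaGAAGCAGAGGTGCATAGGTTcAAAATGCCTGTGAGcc
Gzmd: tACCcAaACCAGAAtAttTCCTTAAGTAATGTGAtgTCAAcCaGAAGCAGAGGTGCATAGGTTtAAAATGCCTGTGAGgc
Gzme: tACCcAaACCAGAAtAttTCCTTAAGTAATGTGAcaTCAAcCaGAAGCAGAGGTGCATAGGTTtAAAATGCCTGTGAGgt
Gzmf: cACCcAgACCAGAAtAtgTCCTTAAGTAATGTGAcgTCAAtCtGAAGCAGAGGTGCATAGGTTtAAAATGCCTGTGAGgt
Gzmg: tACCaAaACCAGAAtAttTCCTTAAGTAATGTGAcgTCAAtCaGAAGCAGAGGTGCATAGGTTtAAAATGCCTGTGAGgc
Between 71 and 77 of the 80 bases were equal in each pair. The windows were placed around a run of letters that all 5 hold, so they were picked for likeness, and the promoter of Gzmb was not compared. The motif TGACGTCA, which cAMP-response element binding factors recognise and which reads the same on both strands, lies in the windows of Gzmc, Gzmf and Gzmg, at 57, 82 and 77 bases before the start. Its letters are not in the 80 bases shown of Gzmd and Gzme. Of 32851 promoters of 250 bases, 508 (1.55%) hold it.

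Genes of antigen-presenting cells were lower with the combination. Mgl2 (ENSMUSG00000040950, chromosome 11, 70130329-70137550, plus strand), a lectin of alternatively activated macrophages and type 2 dendritic cells, measured 2.58, 5.97, 5.69 and 2.93 CPM in combination libraries, against 22.8, 27.5 and 23.8 CPM in phenformin libraries, a log2 fold change of -2.52 ± 0.52 (edgeR adjusted p = 0.176, DESeq2 adjusted p = 0.000444). Ccr2, the chemokine receptor of inflammatory monocytes, measured 45.2, 102, 53.4 and 57.6 CPM in combination libraries, against 192, 222 and 136 CPM in phenformin libraries (-1.51 ± 0.34, DESeq2 adjusted p = 0.00246). Lyz2, lysozyme of myeloid cells, measured 488, 1019, 879 and 961 CPM in combination libraries, against 1387, 1875 and 1237 CPM in phenformin libraries (-0.84 ± 0.30). The groups did not overlap in any of the 3. Of 18 macrophage and monocyte markers, 7 were lower and 0 higher at an unadjusted p under 0.05, beside 5.74% and 6.72% of all genes. In 5 the combination libraries all lay below, beside 5.81% of all genes, and the median was -0.32. The complement genes C1qa (-0.46 ± 0.19) and C1qc (-0.48 ± 0.22) and the growth factor receptor Csf1r (-0.48 ± 0.21) were among the 7 at that p. Cd68, Cd163, Ms4a7 and Ly6c2 gave values of 0.27 ± 0.20, 0.34 ± 0.59, 0.30 ± 0.47 and 0.19 ± 0.53, above 0 in each case. Without phenformin replicate 2 the count at that p was 4 (beside 3.02% of all genes), and without the libraries with Acta1 above 10 CPM it was 3 (beside 3.25%).

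All 11 MHC class II genes had a log2 fold change below 0, with 8 at an unadjusted p under 0.05 (beside 5.74% of all genes lower) and a median of -0.76. Cd74, the invariant chain that guides class II molecules, measured 1195, 1068, 1056 and 1629 CPM in combination libraries, against 2665, 2036 and 1591 CPM in phenformin libraries (-0.76 ± 0.23). H2-Aa measured 552, 507, 451 and 901 CPM in combination libraries, against 1377, 1068 and 806 CPM in phenformin libraries (-0.85 ± 0.27), and H2-Ab1 measured 301, 315, 259 and 547 CPM in combination libraries, against 809, 609 and 467 CPM in phenformin libraries (-0.82 ± 0.27). In these 3 genes combination replicate 4 was the highest of its group and lay above phenformin replicate 4, and the other combination libraries lay below all phenformin libraries. Ciita, the master regulator of class II transcription, measured 31.7, 38.7, 21.7 and 69 CPM in combination libraries, against 61.2, 56.6 and 30.5 CPM in phenformin libraries with wide overlap (-0.30 ± 0.35). H2-Oa and H2-Ob, subunits of H2-O, a class II modulator that B cells express, lay at -2.64 ± 1.09 and -3.53 ± 1.62. The count was 5, with a median of -0.78, without phenformin replicate 2 (beside 3.02% of all genes). It was 9, with a median of -1.27, without the libraries with Acta1 above 10 CPM (beside 3.25%), a fit that kept that replicate. Of the MHC class I genes 0 of 19 reached an unadjusted p under 0.05, the median was 0.09, and B2m measured 3342, 2775, 3234 and 3516 CPM in combination libraries, against 3078, 2802 and 2892 CPM in phenformin libraries.

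Of the dendritic cell genes, 4 of 10 type 1 markers, 6 of 10 type 2 markers and 7 of 14 migratory and other markers were lower at an unadjusted p under 0.05. None were higher in these lists, and over all genes 5.74% were lower and 6.72% higher. The medians were -1.06, -1.74 and -1.25. Naaa, a lysosomal hydrolase enriched in type 1 dendritic cells, measured 26.1, 44.8, 29.2 and 33.8 CPM in combination libraries, against 81.8, 86.6 and 51.4 CPM in phenformin libraries (-1.13 ± 0.27, DESeq2 adjusted p = 0.0111). Itgae, the integrin CD103, measured 1.87, 1.59, 2.39 and 1.47 CPM in combination libraries, against 6.82, 13.1 and 3.55 CPM in phenformin libraries (-2.10 ± 0.54), and Xcr1, the chemokine receptor that defines type 1 cells, measured 1.03, 1.7, 0.795 and 1.52 CPM in combination libraries, against 6.27, 5.8 and 2.14 CPM in phenformin libraries (-1.90 ± 0.69). These 3 genes did not overlap. Flt3, the growth factor receptor of dendritic cells, measured 1.16, 1.04, 0.979 and 0.902 CPM in combination libraries, against 3.07, 7.52 and 1.83 CPM in phenformin libraries (-2.02 ± 0.60), and Ccl22, a chemokine of migratory cells, measured 0.71, 0.712, 2.39 and 0.959 CPM in combination libraries, against 4.97, 45.4 and 6.11 CPM in phenformin libraries (-3.98 ± 1.02). Phenformin replicate 2 was far the highest library for both, but the combination libraries were also below the other phenformin libraries. Without phenformin replicate 2 the type 2 list had 2 lower members and a median of -0.77, and the migratory list had 1 and -0.84, beside 3.02% of all genes lower. Summed over the list, type 1 markers came to 214 to 264 CPM in combination libraries and 269 to 366 CPM in phenformin libraries. Type 2 markers came to 152 to 213 CPM and 231 to 294 CPM. The migratory and other markers came to 947 to 1284 CPM in combination libraries and 1075 to 1183 CPM in phenformin libraries, so their sum was not lower. The co-stimulatory and checkpoint ligands of these cells were also lower, with Cd86 at 16.3, 19.2, 18.1 and 22.6 CPM in combination libraries, against 27.7, 44.2 and 26.2 CPM in phenformin libraries (-0.78 ± 0.30) and Pdcd1lg2, which encodes PD-L2, at 2.06, 1.1, 1.77 and 3.61 CPM in combination libraries, against 7.77, 6.39 and 3.91 CPM in phenformin libraries (-1.49 ± 0.42). Cd274, PD-L1, lay at 0.04 ± 0.26. In the checkpoint list 4 of 12 were lower and 0 higher, beside 5.74% and 6.72% of all genes.

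Lymphocyte genes were lower in the combination chiefly beside phenformin replicate 2. Trbc2, a T cell receptor beta constant gene, measured 7.55, 5.86, 5.81 and 4.85 CPM in combination libraries, against 16.5, 64.1 and 7.95 CPM in phenformin libraries (-2.30 ± 0.94). The groups did not overlap, though phenformin replicate 4 was close to the highest combination library. Of 19 T cell markers, 6 were lower and 0 higher at an unadjusted p under 0.05, beside 5.74% and 6.72% of all genes, with a median of -1.80. Without phenformin replicate 2 the count was 0, beside 3.02% of all genes, and the median -0.67. Summed over the list, T cell markers came to 212 to 234 CPM in combination libraries and 197 to 817 CPM in phenformin libraries.

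B and plasma cell markers gave 8 lower of 14, beside 5.74% of all genes, and a median of -4.48. Without phenformin replicate 2 the count was 0, beside 3.02% of all genes, and the median -1.25. Ighm, the immunoglobulin M heavy chain, measured 6.52, 18.9, 12.4 and 6.99 CPM in combination libraries, against 20.3, 284 and 24 CPM in phenformin libraries (-3.29 ± 1.39). Ms4a1, which encodes CD20, measured 0.0645, 0.164, 0.856 and 0.113 CPM in combination libraries, against 0.136, 52 and 3.42 CPM in phenformin libraries (-5.94 ± 2.49), so that phenformin replicate 1 lay inside the combination range. The germline kappa segment Igkv9-120 had 0 CPM in all 4 combination libraries, against 0.0682, 21.8 and 1.77 CPM in phenformin libraries. The list summed to 244 to 419 CPM in combination libraries and 358 to 1487 CPM in phenformin libraries, but much of this was Sdc1, syndecan 1, which epithelial cells also express. Without Sdc1 the sums were 10.3 to 93.5 CPM in combination libraries and 27.9 to 1362 CPM in phenformin libraries. The part of lymphoid tissue beside the tumour in these differences was not tested.

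**Figure D4:**
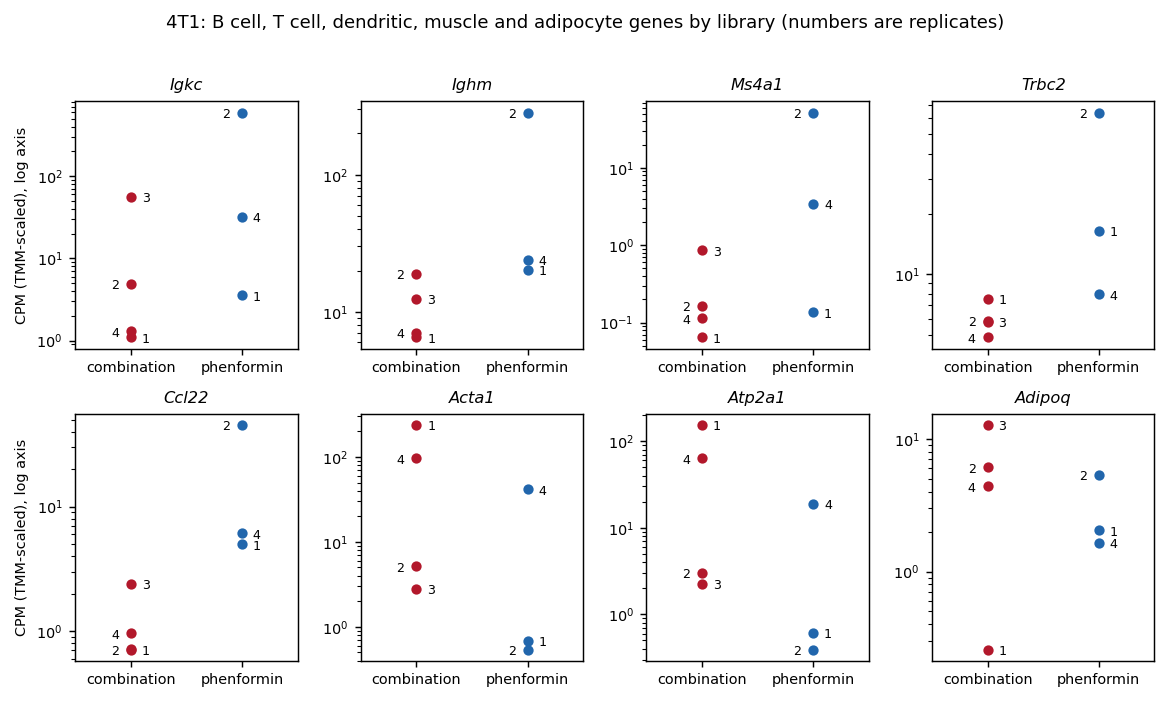
TMM-scaled CPM on a log axis of 5 B cell, T cell and dendritic cell genes, 2 muscle genes and the adipocyte gene Adipoq in each combination library (left) and phenformin library (right), with points numbered by replicate. Phenformin replicate 2 is the highest point for Igkc, Ighm, Ms4a1, Trbc2 and Ccl22, and combination replicates 1 and 4 and phenformin replicate 4 are the highest for Acta1 and Atp2a1.

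Neutrophil markers were higher in value but few reached an unadjusted p under 0.05. Mmp8, the neutrophil collagenase, measured 5.61, 6.19, 16.2 and 6.99 CPM in combination libraries, against 1.98, 4.52 and 2.63 CPM in phenformin libraries (1.51 ± 0.59). Acod1, which makes itaconate, measured 9.03, 5.04, 17.4 and 33.8 CPM in combination libraries, against 6.61, 4.92 and 5.32 CPM in phenformin libraries (1.54 ± 0.67). Nos2, the inducible nitric oxide synthase, measured 29.9, 40.4, 74.9 and 118 CPM in combination libraries, against 29.1, 9.54 and 22.2 CPM in phenformin libraries (1.71 ± 0.62, edgeR adjusted p = 0.316). Mmp8 and Nos2 did not overlap, and Nos2 was highest in combination replicates 3 and 4. The calprotectin subunits S100a8 and S100a9 overlapped, with 22, 15.3, 53.3 and 26.9 CPM in combination libraries, against 10.2, 24 and 21 CPM in phenformin libraries for S100a8 (0.67 ± 0.74) and a log2 fold change of 0.97 ± 0.75 for S100a9. Of 22 neutrophil markers, 3 were higher and 0 lower, beside 6.72% and 5.74% of all genes. In 6 the combination libraries all lay above, beside 6.59% of all genes. A log2 fold change above 0 was seen in 20, and the median was 0.84. Their summed level was 429 to 842 CPM in combination libraries and 217 to 412 CPM in phenformin libraries. Effector genes went both ways, with 1 of 17 higher (Nos2) and 3 lower, beside 6.72% and 5.74% of all genes. Among the lower genes were Ncf4 and Cyba, which encode subunits of the phagocyte NADPH oxidase. Ncf4 measured 25.2, 37.6, 29.7 and 32.4 CPM in combination libraries, against 46.6, 45.8 and 36.1 CPM in phenformin libraries (-0.45 ± 0.16), and Cyba lay at -0.34 ± 0.14.

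NF-kB targets and inflammatory cytokines showed no difference that reached an unadjusted p under 0.05 in 26 genes, with a median of 0.24. Ptgs2, cyclooxygenase 2, measured 105, 127, 155 and 129.6 CPM in combination libraries, against 50.9, 53.5 and 133 CPM in phenformin libraries (0.71 ± 0.41), with phenformin replicate 4 as high as the combination libraries. Saa3, an acute phase protein, measured 22.6, 23.1, 54 and 74.9 CPM in combination libraries, against 17.1, 16.5 and 10.8 CPM in phenformin libraries without overlap (1.56 ± 0.89), and Cxcl5, a neutrophil-attracting chemokine, measured 3.35, 4.11, 9.97 and 21.7 CPM in combination libraries, against 2.73, 2.9 and 4.65 CPM in phenformin libraries (1.52 ± 0.76). Il6, Il1b and Tnf lay at 0.31 ± 0.56, 0.03 ± 0.52 and 0.97 ± 0.60.

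The receptors and sensors through which poly I:C signals mostly overlapped between the combination and phenformin libraries. Tlr3 measured 104, 62.9, 76.1 and 83.7 CPM in combination libraries, against 103, 62.7 and 71.2 CPM in phenformin libraries (0.05 ± 0.18), and its sign turned under 6 alternatives. Ifih1, which encodes the sensor MDA5, and Ddx58, which encodes RIG-I, overlapped and differed by 0.19 ± 0.18 and 0.25 ± 0.21. Irf3, the transcription factor downstream of TLR3, was lower without overlap, at 24.8, 28.7, 23.1 and 28.4 CPM in combination libraries, against 35.3, 35.9 and 35.2 CPM in phenformin libraries (-0.43 ± 0.11, DESeq2 adjusted p = 0.0469). Eif2ak2, the double-stranded RNA-activated kinase PKR, measured 122, 107, 131 and 127 CPM in combination libraries, against 111, 87.8 and 91.3 CPM in phenformin libraries (0.33 ± 0.10). Of 17 sensors and adaptors, 2 were higher and 1 lower at an unadjusted p under 0.05, near the shares of all genes, with a median of 0.19.

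Interferon-stimulated genes were slightly higher in value, with 24 of 27 above 0 and a median of 0.33. At an unadjusted p under 0.05, 2 were higher, near the share of all genes (6.72%), and 0 were lower (beside 5.74%). In 0 were the groups apart, beside 6.59% (higher) and 5.81% (lower) of all genes. Rsad2, the antiviral enzyme viperin, measured 35.9, 14.3, 52.8 and 44.5 CPM in combination libraries, against 19.8, 19.3 and 19 CPM in phenformin libraries (0.93 ± 0.47). Parp14 measured 225, 192, 219 and 266 CPM in combination libraries, against 223, 152 and 151 CPM in phenformin libraries (0.37 ± 0.17). Irf7, which amplifies interferon transcription, measured 164, 48.9, 185 and 168 CPM in combination libraries, against 86.1, 84.9 and 51.8 CPM in phenformin libraries (0.93 ± 0.51). In Rsad2 and Irf7 combination replicate 2 lay below all phenformin libraries and the other combination libraries lay above them. Without the libraries with Acta1 above 10 CPM, which leaves combination replicates 2 and 3, the median was 0.02. Interferon-gamma response genes gave 0 of 16 (beside 6.72% and 5.74% of all genes) and a median of 0.04.

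Glycolysis and hypoxia-responsive genes were mostly higher in value and complex I genes mostly slightly lower. Of 20 glycolysis genes 4 were higher and 0 lower at an unadjusted p under 0.05, beside 6.72% and 5.74% of all genes, with a median of 0.21. Without phenformin replicate 2 the count was 1 higher, near the share of all genes (4.25%). Summed over the list, glycolysis RNA came to 5298 to 5855 CPM in combination libraries and 4174 to 5145 CPM in phenformin libraries. Pkm, pyruvate kinase, measured 1625, 1649, 1706 and 1523 CPM in combination libraries, against 1328, 1130.2 and 1271 CPM in phenformin libraries without overlap (0.39 ± 0.09, DESeq2 adjusted p = 0.00467), and Pgam1, phosphoglycerate mutase, measured 32.6, 40.6, 37.5 and 33.8 CPM in combination libraries, against 26.4, 25.7 and 32.3 CPM in phenformin libraries (0.36 ± 0.13). Hypoxia-responsive genes gave 7 higher and 2 lower of 19, beside 6.72% and 5.74% of all genes, and a median of 0.31. Apart from Ankrd1, Ndrg1 measured 880.4, 832, 1002 and 896 CPM in combination libraries, against 523, 329 and 716 CPM in phenformin libraries (0.79 ± 0.28) and Ak4, an adenylate kinase of mitochondria, measured 20.8, 35.8, 24.8 and 35.6 CPM in combination libraries, against 12.9, 12.1 and 23.7 CPM in phenformin libraries (0.85 ± 0.27). Vegfa and Car9, both textbook hypoxia targets, lay at 0.10 ± 0.39 and 0.02 ± 0.26. Without phenformin replicate 2, which had the lowest Ndrg1 and Ak4, 2 were higher and 2 lower (beside 4.25% and 3.02% of all genes). Without the libraries with Acta1 above 10 CPM, a fit that kept that replicate, 10 were higher (beside 5.34%). Of 37 genes listed as nuclear-encoded subunits of complex I, the target of phenformin, with Ndufa4 among them, 33 had a log2 fold change below 0. The median was -0.09, and 2 were lower at an unadjusted p under 0.05, near the share of all genes (5.74%). Ndufc2 measured 39.1, 45.3, 40.5 and 46.5 CPM in combination libraries, against 48.6, 53.7 and 51.4 CPM in phenformin libraries (-0.26 ± 0.10).

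Stress and lipid genes gave a few single differences. Gclm, the regulatory subunit of the enzyme that starts glutathione synthesis, measured 53.1, 50.8, 55.8 and 52.6 CPM in combination libraries, against 41.8, 38.3 and 39.4 CPM in phenformin libraries without overlap (0.41 ± 0.08, DESeq2 adjusted p = 0.00258). Hmox1, haem oxygenase 1, measured 62.3, 81.3, 238 and 129 CPM in combination libraries, against 50.1, 50.7 and 54.3 CPM in phenformin libraries (1.30 ± 0.54). Cebpg, a partner of ATF4 in the stress response, measured 88.2, 106, 86 and 109 CPM in combination libraries, against 70.7, 73.9 and 72.8 CPM in phenformin libraries (0.42 ± 0.11, DESeq2 adjusted p = 0.0286). The groups were apart in all 3. The counts were 3 higher of 19 for oxidative stress defence (median 0.13) and 2 higher and 1 lower of 23 for the integrated stress response (median 0.06). Over all genes 6.72% were higher and 5.74% lower, near the shares of the integrated stress response list. Insig1, which retains the sterol sensor in the endoplasmic reticulum, measured 55.4, 44.2, 56.9 and 42 CPM in combination libraries, against 74.6, 67 and 78.5 CPM in phenformin libraries (-0.56 ± 0.14, DESeq2 adjusted p = 0.0323). It was the 1 lower gene of 25 in cholesterol and fatty acid synthesis, near the share of all genes (5.74%).

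Few cell cycle genes reached an unadjusted p under 0.05. Of 20 S phase genes 0 did (17 above 0, median 0.08), and of 20 mitosis genes 2 were higher (19 above 0, median 0.28), Ube2c at 0.65 ± 0.25 and the kinase gene Aurka at 0.52 ± 0.21. Without phenformin replicate 2 all 20 of each list lay above 0, with medians of 0.18 and 0.31 and counts of 0 and 1, and without the libraries with Acta1 above 10 CPM 7 S phase genes and 19 mitosis genes did, with medians of -0.05 and 0.17 and counts of 0. In the p53 and cell death list 2 of 19 were lower, beside 5.74% of all genes. These were the death genes Pmaip1, at 10.1, 13, 16.7 and 12.1 CPM in combination libraries, against 14.9, 21 and 19.9 CPM in phenformin libraries (-0.52 ± 0.18), and Bbc3, at 5.61, 4.87, 3.79 and 3.95 CPM in combination libraries, against 7.09, 7.13 and 6.48 CPM in phenformin libraries (-0.60 ± 0.25).

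Other cell types of a tumour piece varied widely between libraries of the same group. All 16 skeletal muscle markers had a log2 fold change above 0 and a median of 2.06, with 3 at an unadjusted p under 0.05, and the groups overlapped in every one. Atp2a1, the calcium pump of fast muscle, measured 154, 3.01, 2.26 and 63.2 CPM in combination libraries, against 0.613, 0.393 and 19 CPM in phenformin libraries. Without phenformin replicate 4 the muscle median was 4.97. Adipocyte markers gave 0 of 13 and a median of 0.60, with Adipoq at 0.258, 6.13, 12.8 and 4.4 CPM in combination libraries, against 2.04, 5.36 and 1.65 CPM in phenformin libraries. Endothelial and pericyte markers gave 2 higher and 1 lower of 16, beside 6.72% and 5.74% of all genes. Emcn, endomucin, lay at 0.59 ± 0.23, Kdr, a receptor of vascular endothelial growth factor, at 0.58 ± 0.23, and the pericyte gene Rgs5 measured 25.5, 57.7, 55.4 and 51.1 CPM in combination libraries, against 73.1, 78.4 and 72.8 CPM in phenformin libraries (-0.66 ± 0.26). Among 19 epithelial and keratin genes 3 were higher and 1 lower, beside the same shares of all genes. Krt17 measured 8.32, 2.74, 5.14 and 5.25 CPM in combination libraries, against 2.52, 0.639 and 1.16 CPM in phenformin libraries without overlap (1.91 ± 0.77), and Krt5 measured 0.71, 0.821, 2.51 and 6.49 CPM in combination libraries, against 0.477, 0.836 and 0.673 CPM in phenformin libraries (1.97 ± 0.65), highest in combination replicate 4. Mast cell and basophil markers gave 1 higher of 10, beside 6.72% of all genes. This was the basophil protease Mcpt8, at 5.35, 6.84, 7.95 and 7.95 CPM in combination libraries, against 3.07, 2.51 and 4.52 CPM in phenformin libraries (1.06 ± 0.35).

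The leading lower genes outside the lists were of mixed function. Plxdc2, a membrane protein that binds pigment epithelium-derived factor, measured 16.2, 17.5, 18.7 and 13.8 CPM in combination libraries, against 48.4, 43 and 32.4 CPM in phenformin libraries (-1.32 ± 0.25, edgeR adjusted p = 0.176, DESeq2 adjusted p = 0.000271). Ggct, which cleaves gamma-glutamyl dipeptides in glutathione turnover, measured 8.64, 6.73, 5.93 and 6.54 CPM in combination libraries, against 14, 17 and 13.8 CPM in phenformin libraries (-1.10 ± 0.23). Fam101b measured 35.9, 78.5, 82.3 and 76.7 CPM in combination libraries, against 128, 173 and 337 CPM in phenformin libraries (-1.64 ± 0.35). The groups were apart in each, as the choice of leading genes required. Afap1l2, Esyt3, Arrdc2, Plekhg5 and Paox differed by -0.99 ± 0.22, -1.17 ± 0.26, -0.85 ± 0.19, -0.57 ± 0.13 and -0.47 ± 0.11, also without overlap. Sept3, a septin, measured 0.903, 0.821, 0.856 and 0.508 CPM in combination libraries, against 4.63, 4.87 and 1.83 CPM in phenformin libraries (-2.28 ± 0.64).

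The difference poly I:C made in the presence of phenformin was set beside its contrast in tumours without phenformin (poly I:C minus control, 4 libraries each), which shares no library with the contrast above. That contrast called 1102 genes (6.32%), and at an unadjusted p under 0.05 it had 2095 higher (12%) and 2080 lower (11.9%). The difference of both contrasts, the interaction, had no called gene among 17445 by edgeR (0%), a smallest adjusted p of 0.461 and 1628 genes at an unadjusted p under 0.05. At an adjusted p under 0.05 there were 36 genes by DESeq2, 2 by voom and 19 by edgeR without poly I:C replicate 4. Over 14460 genes (average log2 CPM at or above 1) the log2 fold changes of both contrasts had a Pearson r of 0.157 and a Spearman rho of 0.359, across genes that are not independent replicates and that come from different libraries. Among the genes at an unadjusted p under 0.05 with phenformin, 76.2% had the same sign without it, against 61.6% of all.

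Matrix genes were higher with poly I:C in both settings. Bgn averaged 673 ± 205 CPM with poly I:C and 339 ± 61.3 CPM in controls (SD, n = 4 each), a log2 fold change of 0.99 ± 0.19 (edgeR adjusted p = 0.0117), and the interaction was -0.05 ± 0.27. For Cdh11 these were 0.99 ± 0.14 (edgeR adjusted p = 0.00445) and -0.11 ± 0.20, and for Gzme 1.76 ± 0.27 (edgeR adjusted p = 0.00538) and -0.12 ± 0.38. Mgl2 fell without phenformin by 3.02 on the log2 scale (edgeR adjusted p = 0.00951), with an interaction of 0.50 ± 0.71. In the collagen list 14 of 24 were higher with phenformin at an unadjusted p under 0.05 and 20 without it, beside 6.72% and 12% of all genes, and the medians were 0.75 with phenformin and 1.08 without. None of these interactions passed the test, which does not show that the responses were equal.

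NF-kB targets had the lowest interaction median of the inflammatory lists, at -1.03, with 0 of 26 higher with phenformin (median 0.24) and 15 without it (median 1.08). The share of all genes that were higher was 6.72% with phenformin, where 1 of the 3 libraries without poly I:C stood apart, and 12% without it, so member counts of these contrasts are not on 1 footing. Ptgs2 averaged 254 ± 122 CPM with poly I:C and 60.7 ± 17.9 CPM in controls, a rise of 2.06 ± 0.38, and its interaction was -1.35 ± 0.54 (edgeR adjusted p = 0.51). Nos2 had 3.03 ± 0.58 without phenformin and an interaction of -1.32 ± 0.80 (edgeR adjusted p = 0.615). Of 22 neutrophil markers 3 were higher with phenformin and 15 without it (median 1.79), and of 27 interferon-stimulated genes 2 with phenformin and 15 without it (median 0.60), beside the same 6.72% and 12%. No interaction of a member of these lists passed the test, so a smaller response with phenformin was not shown.

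**Figure D5:**
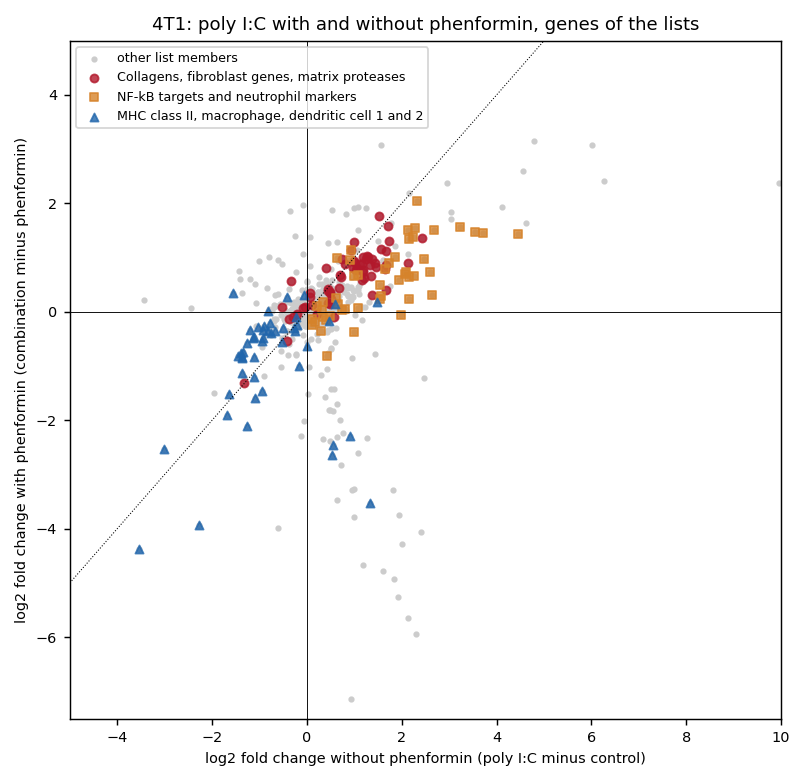
Log2 fold change of poly I:C with phenformin (combination minus phenformin, vertical) against that without (poly I:C minus control, horizontal) for the 596 tested genes of the 33 lists, with a dotted line of equality. Collagen, fibroblast and protease genes (circles) lie near the line, NF-kB targets and neutrophil markers (squares) lie mostly below it, and lymphocyte genes among the other list members (small points) reach the lowest vertical values.

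The 5 genes with the smallest p for the interaction included 4 whose log2 fold changes had opposite signs with and without phenformin. Mapt, the microtubule protein tau, measured 6.71, 3.94, 3.49 and 4.29 CPM in combination libraries, against 2.39, 2.06 and 2.75 CPM in phenformin libraries, a log2 fold change of 0.94 ± 0.24, and fell without phenformin, with 2.51, 2.07, 2.23 and 1.8 CPM in poly I:C libraries against 3.32, 4.17, 3.21 and 4.54 CPM in controls (-0.82 ± 0.22, edgeR adjusted p = 0.0421). Its interaction was 1.76 ± 0.33 (edgeR adjusted p = 0.461). Dio2, the deiodinase that activates thyroid hormone, measured 50.6, 43.2, 67.6 and 73.2 CPM in combination libraries, against 74.8, 48.7 and 96.9 CPM in phenformin libraries with overlap (-0.32 ± 0.32), but 5.13, 6.32, 7.19 and 13 CPM in poly I:C libraries against 35.5, 65.7, 66.1 and 38.8 CPM in controls (-2.71 ± 0.32, edgeR adjusted p = 0.00398), an interaction of 2.38 ± 0.45. Rasgef1b and Man1c1, a Golgi mannosidase, had opposite signs like Mapt, above 0 with phenformin and below 0 without it, with interactions of 1.21 ± 0.23 and 1.24 ± 0.25. Rbbp8, the DNA end-resection factor CtIP, went the other way, at 44.3, 39, 35.6 and 39.6 CPM in combination libraries, against 44, 54.6 and 53 CPM in phenformin libraries (-0.35 ± 0.10), with an interaction of -0.70 ± 0.14.

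The same contrast in MT tumours (4 libraries each) called 316 of 18956 genes (1.67%) in a joint fit of all 31 libraries, and 7 genes (0.0369%) differed between the models, with 2877 at an unadjusted p under 0.05. The CPM in the next sentences are from that joint fit. Ankrd1 measured 256, 259, 263 and 239 CPM in 4T1 combination libraries, against 150.2, 92.1 and 109 CPM in 4T1 phenformin libraries, and 0.488, 0.49, 0.808 and 0.624 CPM in MT combination libraries, against 1.84, 1.26, 1.22 and 1.17 CPM in MT phenformin libraries. It was higher with the combination in the 4T1 tumours and lower in the MT tumours, where its level was low throughout, and the difference of the log2 fold changes, 4T1 minus MT, was 2.29 ± 0.39 (edgeR adjusted p = 0.0264).

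Itga7, a laminin receptor subunit of muscle and some stromal cells, measured 17.1, 13.2, 12.2 and 10.5 CPM in 4T1 combination libraries, against 5.59, 4.27 and 5.9 CPM in 4T1 phenformin libraries, and 2.01, 2.21, 1.44 and 2.37 CPM in MT combination libraries, against 6.22, 3.93, 2.23 and 4.5 CPM in MT phenformin libraries (difference 2.40 ± 0.45, edgeR adjusted p = 0.0364). Mettl7b, the neighbour of Itga7 on the other strand with 9 shared bases at their ends, differed by 4.93 ± 0.84 (edgeR adjusted p = 0.0264). Htr7, a serotonin receptor, went the other way, with 7.62, 4.69, 5.42 and 4.18 CPM in 4T1 combination libraries, against 14.5, 16.4 and 10.4 CPM in 4T1 phenformin libraries, and 5.98, 5.45, 5.42 and 8.24 CPM in MT combination libraries, against 2.19, 2.53, 3.8 and 2.53 CPM in MT phenformin libraries (difference -2.51 ± 0.41, edgeR adjusted p = 0.0264).

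Stfa2, a stefin of neutrophils, rose in MT tumours, with 9.09, 11, 3.06 and 4.31 CPM in MT combination libraries, against 0.141, 0, 0.144 and 0.123 CPM in MT phenformin libraries, and measured 1.05, 0.79, 1.77 and 0.973 CPM in 4T1 combination libraries, against 0.28, 1.41 and 1 CPM in 4T1 phenformin libraries (difference -5.64 ± 0.99, edgeR adjusted p = 0.0284). Egfl8 fell in MT tumours, with 2.01, 3.06, 3.17 and 3.37 CPM in combination libraries, against 7.07, 6.66, 7.18 and 6.78 CPM in phenformin libraries, and overlapped in 4T1 tumours (difference 1.58 ± 0.29, edgeR adjusted p = 0.0346). The seventh gene, Gm2a, a lysosomal lipid-binding protein named because it completed the 7, differed by -0.98 ± 0.18 (edgeR adjusted p = 0.0364). The lists also differed in value, though no list was tested: collagens had a median of 0.75 in the 4T1 tumours and 0.02 in the MT tumours, MHC class II genes -0.76 and 0.73, and macrophage markers -0.32 and 0.79. The MT libraries were themselves uneven. In CPM of unscaled library totals, Igkc measured 9108, 129, 29.1 and 2209 in MT combination libraries, against 7.3, 3.77, 40.7 and 3329 in MT phenformin libraries. Krt14, a basal keratin, measured 137, 684, 813 and 626 in MT combination libraries, against 16.9, 20.04, 498 and 376 in MT phenformin libraries. Their part in these medians was not tested. The number of genes that differed between the models ran between 0 and 1798 when 1 library was left out. It was 1798 without MT phenformin replicate 4, and 0 without 4T1 phenformin replicate 2, MT combination replicate 2, MT phenformin replicate 1 or MT phenformin replicate 2.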

How the data were processed

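Poly(A) RNA was isolated with RNeasy columns and made into strand-specific Illumina TruSeq libraries, per the labels' protocols. The authors used Trimmomatic, STAR 2.3.0, featureCounts 1.4.4 and the mouse build GRCm38, per the submitters' processing notes; their order, annotation and the strand setting of the counting are not given in the sources used here. The deposited values are raw counts per gene, whole and not normalised, for 39017 genes, of which 8371 were at 0 in all 31 libraries. Coordinates come from GENCODE M21 (GRCm38), which held 37607 of the identifiers. Symbols are those deposited with the counts, apart from list genes deposited under an older symbol, which carry a current one. Of the named genes, 44 overlap another annotated gene, 5 of them on the same strand (Clec9a, Klrb1c, Prrx1, Adam12 and Egfl8), and reads of such pairs may not be told apart.

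Groups follow the library titles. The 15 4T1 libraries were fitted together with edgeR 4.0.16 (R 4.3.3; filterByExpr with a minimum count of 10 and a minimum total of 15, TMM factors, quasi-likelihood test) and Benjamini-Hochberg adjustment over all 17445 genes tested; 1 fit of all 31 libraries tested the difference between models over 18956 genes. The SE of a log2 fold change was obtained as its size over the root of the F statistic. The members and the 33 lists (605 genes, 596 tested) were chosen with earlier results of these data known, so list counts are descriptions. Leading genes had an average log2 CPM of at least 1, a symbol that is not a bare identifier, clone or pseudogene name, and no overlap between combination and phenformin libraries. Among these, the 10 smallest p and the 5 largest folds at an unadjusted p under 0.01 in each direction were named. Also named were the 4 smallest p of each list, the 5 smallest p of the interaction and of the model difference, and Tlr3, Ifih1, Ddx58, Nos2, S100a8, S100a9, Igkc and Acta1. The condition on overlap did not apply to these further genes. Other list members named in the text, and Gzmg, Cyr61, Ctgf, Lats2, Gm2a, Mfap5, Slit3, Aebp1, Vgll3, Fstl1 and Clec7a, were added with their values known. A few genes that this choice would name are not reported here.

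Alternatives were DESeq2 1.42.0, limma 3.58.1 voom with quality weights, DESeq2 size factors, other filters, a replicate block, the 2 groups alone, each library left out, and fits without libraries with Acta1 above 10 CPM (combination replicates 1 and 4, phenformin replicate 4, poly I:C replicates 2 and 3) or Igkc above 100 CPM (phenformin replicate 2, poly I:C replicate 1, control replicate 4). The fits were tested on simulated data. Sequences come from RefSeq tables and GENCODE transcripts.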

Additional observations from a re-analysis of the deposited data

Results flagged for a closer look

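In 18 of 160 named genes tested, 1 of the 4 combination libraries lay far from the other 3. Chance gives about 1 in 20 for a single gene, but most of these genes were named by values from the same libraries, so that rate is no yardstick for them. Several of these genes move together, so they are not separate trials. Replicate 3 was the library apart for 10 of them. It was the highest for Mmp8 (16.2 CPM), Mmp9 (416 CPM), Ccl22 (2.39 CPM), Cd79b (1.16 CPM), Ms4a1 (0.856 CPM), Igkc (55.9 CPM), Cd209d (0.0612 CPM, about 1 read), the adipocyte gene Plin4 (17.1 CPM) and Plekhg5 (24.1 CPM), and the lowest for Ndufa3 (23.7 CPM). Replicate 2 was the highest for Slc9b2 (7.45 CPM), Adamts12 (23.7 CPM) and Pfkp (153 CPM) and the lowest for Irf7 (48.9 CPM). Replicate 4 was the highest for H2-Eb1 (726 CPM) and Ndufb3 (42.2 CPM) and the lowest for Esyt3 (14.7 CPM), and replicate 1 was the lowest for Fam101b (35.9 CPM).

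The response to poly I:C on top of phenformin differed between the 4T1 and MT tumours in an edgeR test of the difference itself for Itga7 (2.40), Mettl7b (4.93), Egfl8 (1.58), Ankrd1 (2.29), Htr7 (-2.51) and Stfa2 (-5.64), as 4T1 minus MT on the log2 scale.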

How the results depend on the processing

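In the 4T1 contrast the count of 0 genes became 180 in DESeq2 and 14 in the fit of both groups alone, and ranged between 0 and 1 when 1 library was left out (1 without poly I:C replicate 4, Mgl2, adjusted p = 0.0214). The interaction count of 0 became 36 in DESeq2 and 2 in voom and ranged between 0 and 19. The 7 genes that differed between models became 258 in DESeq2, 4 with no filter and 4 with the replicate block, and ranged between 0 and 1798.

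Leaving out libraries with Acta1 above 10 CPM turned the sign of Irgm1 (-0.13), Gbp3 (-0.20), Mcm5 (-0.10), Cpa3 (-0.38) and Tlr3 (-0.26), and moved the median of interferon-stimulated genes (0.02), neutrophil effector genes (-0.36), MHC class II genes (-1.27) and hypoxia-responsive genes (0.60). When 1 library was left out, the mast cell genes Tpsab1 (-0.18 to 0.92), Tpsb2 (-0.089 to 0.82) and Cpa3 (-0.54 to 0.69) were lowest without combination replicate 4 and Tlr3 ranged between -0.10 and 0.29. Tlr3 was also below 0 in voom (-0.074) and without combination replicate 1 (-0.09), phenformin replicate 2 (-0.10), phenformin replicate 4 (-0.03) or the libraries with Igkc above 100 CPM (-0.10). The type 2 dendritic cell median was -0.93 in the fit of both groups alone, -0.77 without phenformin replicate 2 and -0.78 without the libraries with Igkc above 100 CPM; that of B and plasma cell markers was -1.25 and -0.73 in those fits, and that of muscle markers 4.97 without phenformin replicate 4. The cause was not tested. Of the values of named genes under all alternatives, 3772 kept their direction and their side of the threshold, 48 (in 40 genes) passed it, and 13 (in 7 genes) turned sign.

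With the replicate number as a block, edgeR called 0 genes in the contrast (1873 at an unadjusted p under 0.05) and 0 interactions. The labels do not say that the numbers pair the libraries. Deviations of combination and phenformin libraries with the same number correlated at 0.059, 0.197 and 0.111. Combination replicates 2 and 4 correlated best with the phenformin library of their own number, but every phenformin library correlated best with a combination library of another number. So few values cannot decide whether the numbers pair. At 14901135 to 19849915 counts per library, genes under about 1 CPM rest on few reads, and 3 phenformin libraries limit what the test can call.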
